A study of Mus musculus with 10 samples.

Results

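A set of 9 genes that carry, convert, bind or answer thyroid hormone were followed in whole cochleas of mice at postnatal day 8: the receptors Thra and Thrb, the deiodinases Dio2 and Dio3, the transporters Slc16a10 and Slco1c1, the hormone-binding protein gene Crym, the hormone-induced factor gene Klf9 and the corepressor gene Ncor1. They were chosen by symbol, and all 9 were found among the 27179 genes of the deposited count table. Total RNA, from cochleas kept in RNAlater, came from 5 libraries labelled Pknox2-/- (knockout) and 5 labelled Pknox2+/+ (wild type), all from cochleas of the same age. The labels name no strain, sex, construct or number of animals per library, and the series describes the samples as biologically independent.

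Thyroid hormone reaches a cell mainly as thyroxine, passes the membrane through transporters, and is turned into the active triiodothyronine by type 2 deiodinase or inactivated by type 3 deiodinase. In the nucleus its receptors repress their target genes through corepressors when no hormone is bound and activate them when it is. In mice the hormone times the remodelling of the cochlea before hearing begins, and loss of Thrb or of Dio2 impairs hearing, while loss of Dio3 brings cochlear differentiation forward.

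The libraries held 16642525 to 19394072 counts each. The targeted gene Pknox2 stood at 21.1 ± 4.38 CPM (counts scaled to a common library size, with TMM factors) in the knockout-labelled libraries and at 19.9 ± 1.96 CPM in wild type (SD, n = 5 each), so a count over the whole gene did not check the labels, and each direction given here depends on them. Cochlear markers were present: 7 otic fibrocyte genes together made up 3463 to 5028 CPM in knockout-labelled and 4310 to 5369 CPM in wild-type libraries, and hair cell genes made up 207 to 279 CPM in knockout-labelled and 234 to 299 CPM in wild-type libraries. The fibrocyte gene Coch alone had 860 ± 88.0 CPM in knockout-labelled and 1436 ± 155 CPM in wild-type libraries, with no overlap. Of all tested genes 1.22% lay below wild type in this way. Markers of surrounding bone summed to 19315 to 25467 CPM in knockout-labelled and 15318 to 18032 CPM in wild-type libraries, also with no overlap. All 8 bone markers had a log2 fold change above 0, 7 of them at an unadjusted p under 0.05 by edgeR, and none was called. Of all tested genes 11.4% were higher at that mark, and 7734 of the 16018 had a log2 fold change above 0. The bone marker shift ran alongside the Slco1c1, Crym and Tectb differences given here, and its part in them was not tested. Of 8 hair cell markers 7 passed the filter on low counts, and Atoh1 did not. Knockout libraries 2, 3 and 5 stood apart, with scores of 41.2 to 73.5 on the first principal component of all genes, against -28.6 and -17.1 for knockout 1 and 4 and -42.3 to 2.77 for wild type. Summed Y-linked expression was 209 CPM in knockout 1 and 0 to 11.3 CPM in the other 4 knockout-labelled libraries, against 102 to 225 CPM in wild type, so the sex makeup of the libraries differed between the groups.

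Set per kilobase of annotated exon, which allows levels of different genes to be compared, Dio2 was the most abundant of the 9, with 64.8 ± 8.82 CPM per kilobase in knockout-labelled and 67.6 ± 10.7 CPM per kilobase in wild-type libraries. Slco1c1 (32.1 ± 2.88 CPM per kilobase in knockout-labelled and 44.3 ± 4.60 in wild-type libraries) and Thra (24.9 ± 2.83 CPM per kilobase in knockout-labelled and 24.8 ± 1.99 in wild-type libraries) came next, and in wild type the ranges of these 3 genes did not touch one another. Klf9, Ncor1, Slc16a10, Thrb and Crym followed, at means of 11.6, 9.69, 6.18, 6.64 and 7.96 CPM per kilobase in knockout-labelled libraries and of 19.0, 12.3, 6.86, 6.55 and 4.25 in wild type. In wild type each of these 5 overlapped in range with the next of them. Dio3, at 0.205 ± 0.107 CPM per kilobase in knockout-labelled and 0.470 ± 0.238 in wild-type libraries, lay below all the others. Genes with overlapping neighbours are uncertain on this scale, because the labels do not say whether reads were counted by strand.

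None of the 8 members with enough counts for the test was called between the groups, where 0.0187% of all 16018 tested genes were called (edgeR quasi-likelihood test, Benjamini-Hochberg adjusted p under 0.05; 0.00624% higher and 0.0125% lower in knockout-labelled libraries). At an unadjusted p under 0.05 there were 2, Slco1c1 and Crym, and 20.1% of all tested genes passed that mark (11.4% higher and 8.66% lower). Slco1c1 and Crym were also the 2 members called by DESeq2, which called 2.07% of all genes (1.25% higher and 0.818% lower). limma-voom called 0 members, and with sample quality weights it called 4, Klf9 and Ncor1 besides, among 39.1% of all genes (18.6% higher and 20.5% lower). The median log2 fold change, knockout over wild type, was -0.10 over the 8 members and -0.01 over all tested genes. Of the 8 members 5 lay below 0, as did 8284 of all 16018 tested genes. Without knockout 2, 3 and 5 the median was 0.048, over all 9 members because Dio3 (-1.60) passed the filter in that fit. Of all tested genes 1.15% lay above and 1.22% below every wild-type library in all 5 knockout-labelled libraries, and of the 8 members 0 lay above and 1 below.

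**Figure D1:**
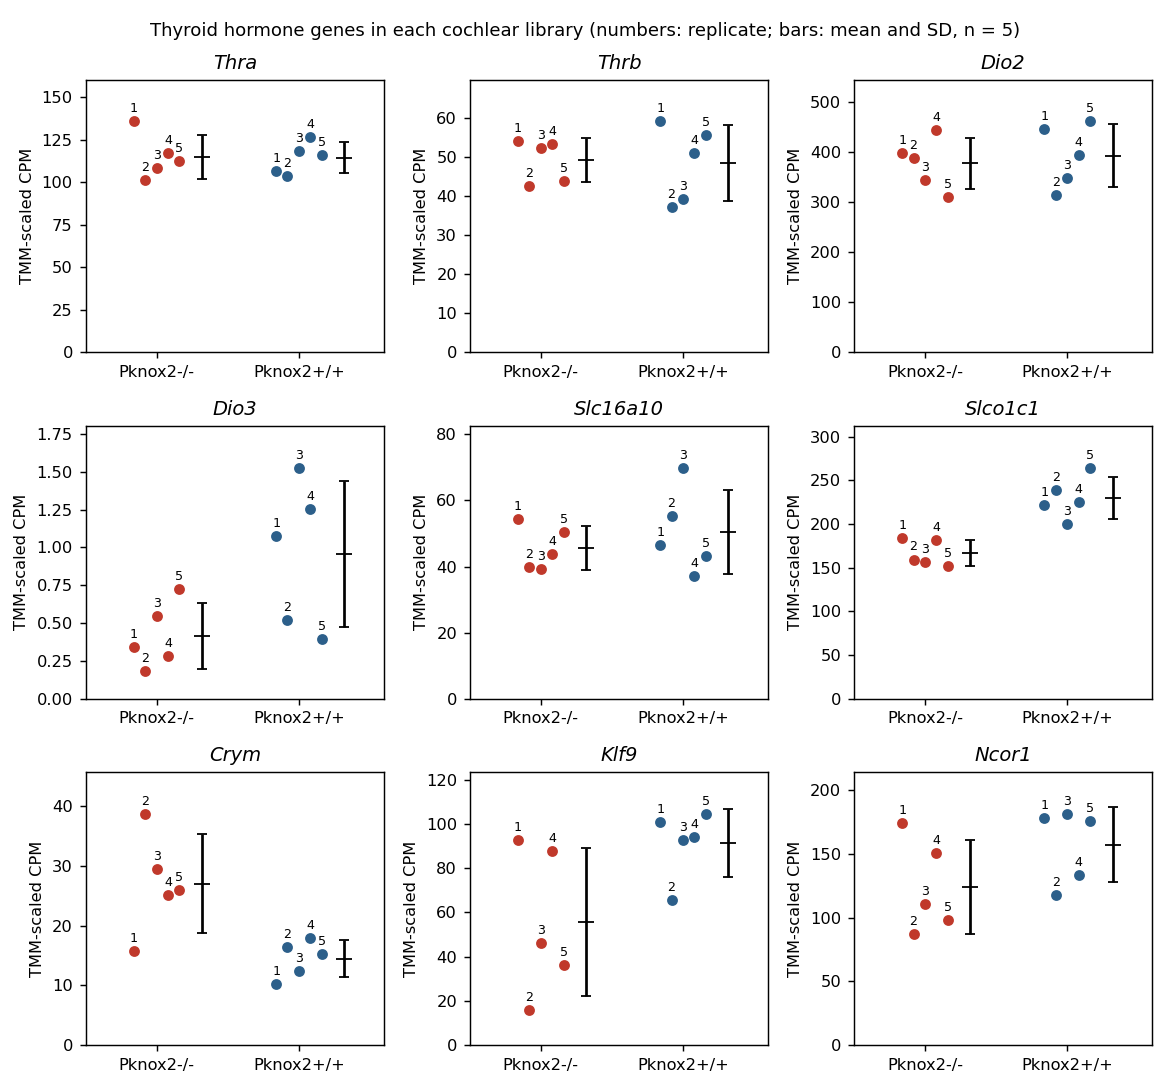
TMM-scaled CPM of the 9 genes in each library (points, with replicate numbers), Pknox2-/- left and Pknox2+/+ right, and the group means with SD (bars, n = 5 each). Slco1c1 is the one gene whose groups do not overlap. Klf9 lies below every wild-type library in knockout libraries 2, 3 and 5, and wild type 2 is the lowest of its group at 65.5 CPM.

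Both receptor genes had nearly equal mean levels in the 2 groups. Thra (Entrez 21833, chromosome 11, 98740776 to 98769006, plus strand, GRCm38) encodes the alpha receptor, which in mouse acts early and widely. It had 136, 101, 108, 117 and 112 CPM in knockout libraries 1 to 5, against 107, 104, 118, 127 and 116 CPM in wild-type libraries 1 to 5. The ranges overlapped almost fully, and knockout 1 was the highest of all 10. The groups differed by 0.01 on the log2 scale (95% confidence interval -0.21 to 0.22, adjusted p = 0.964, edgeR quasi-likelihood test), an interval that spans 0.866-fold to 1.17-fold.

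The 3′ end of Thra overlaps Nr1d1, a clock gene on the other strand (98767932 to 98775377), so reads from the shared stretch may be misassigned or dropped. Nr1d1 had 70.5 ± 9.53 CPM in knockout-labelled and 58.9 ± 6.69 CPM in wild-type libraries, a log2 difference of 0.26 (adjusted p = 0.244, edgeR). The counts are per gene and do not part the hormone-binding alpha1 product of Thra from the alpha2 product, which does not bind the hormone.

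Thrb (Entrez 21834, chromosome 14, 17659225 to 18040097, plus strand) encodes the beta receptor, the form needed for hearing in mice. Its levels were 54.1, 42.5, 52.2, 53.3 and 43.9 CPM in knockout libraries 1 to 5, against 59.1, 37.2, 39.3, 51.1 and 55.7 CPM in wild-type libraries 1 to 5. All 5 knockout-labelled libraries lay inside the wild-type range. On the log2 scale the difference was 0.02 (95% interval -0.29 to 0.33, adjusted p = 0.935, edgeR).

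Since PKNOX2 belongs to the TALE homeodomain proteins, for which TGACAG is a known core site, the promoters were searched on both strands for TGACAG, for the nuclear receptor half-site AGGTCA and for the cyclic AMP element TGACGTCA. RefSeq windows (GRCm38.p6, 250 bases before to 50 after a start) were at hand for 7 of the 9 genes. Thrb was the one member with TGACAG in such a window, and both of its windows held it. They are shown for that reason, 5′ to 3′ on the gene's strand with matches in capitals, the upstream start at chr14:17660710-17661009 and the downstream start at chr14:17981394-17981693.
Thrb upstream start: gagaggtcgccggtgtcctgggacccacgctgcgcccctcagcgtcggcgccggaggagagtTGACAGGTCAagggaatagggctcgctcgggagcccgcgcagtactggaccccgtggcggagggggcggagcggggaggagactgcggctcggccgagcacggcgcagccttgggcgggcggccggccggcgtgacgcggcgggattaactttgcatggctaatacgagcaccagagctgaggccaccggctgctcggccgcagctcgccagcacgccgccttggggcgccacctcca
Thrb downstream start: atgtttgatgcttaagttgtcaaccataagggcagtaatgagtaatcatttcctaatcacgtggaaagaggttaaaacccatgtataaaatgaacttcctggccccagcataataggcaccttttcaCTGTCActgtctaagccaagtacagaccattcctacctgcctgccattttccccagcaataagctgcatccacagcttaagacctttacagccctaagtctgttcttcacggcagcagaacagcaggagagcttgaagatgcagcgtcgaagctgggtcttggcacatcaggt
In the upstream window TGACAG begins at -188 from the start site and AGGTCA at -184, so the end of one match is the start of the other and they read as 1 run in capitals. In the downstream window TGACAG lies on the other strand, at -123, and so reads CTGTCA. Among 32851 promoter windows of this length 19.2% held TGACAG and 16.3% held AGGTCA. These are matches of letters and not measured binding.

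Dio2 was abundant and similar in both groups, while Dio3 was close to the detection limit. Dio2 (Entrez 13371, chromosome 12, 90724552 to 90739038, minus strand) encodes the type 2 deiodinase, which in the rodent cochlea is made in connective tissue cells near the sensory epithelium. It had 398, 388, 345, 445 and 311 CPM in knockout libraries 1 to 5, against 446, 315, 349, 394 and 461 CPM in wild-type libraries 1 to 5. Knockout 5 and wild type 2 were the lowest and the groups overlapped. For Dio2 the log2 fold change was -0.06 (95% interval -0.35 to 0.23, adjusted p = 0.793, edgeR).

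The Dio2 promoter window is shown because it held the cyclic AMP element TGACGTCA, the site through which this gene is known to answer cyclic AMP. The match, in capitals, begins at -95 from the start site in chr12:90738989-90739288 on the minus strand, and 1.79% of all windows held that element.
Dio2 start: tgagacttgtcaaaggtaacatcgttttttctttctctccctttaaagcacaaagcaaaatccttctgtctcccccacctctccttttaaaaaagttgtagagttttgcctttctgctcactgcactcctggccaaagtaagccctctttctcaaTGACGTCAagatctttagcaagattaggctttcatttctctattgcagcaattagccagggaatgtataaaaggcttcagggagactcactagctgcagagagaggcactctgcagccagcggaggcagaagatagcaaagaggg
Neither TGACAG nor AGGTCA occurs in it.

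Dio3 (Entrez 107585, chromosome 12, 110279230 to 110281097, plus strand) encodes the type 3 deiodinase, an imprinted gene that is high in the immature mouse cochlea. It had 6, 3, 9, 5 and 12 counts in knockout libraries 1 to 5, against 18, 9, 30, 22 and 7 counts in wild-type libraries 1 to 5. Knockout 1, 2 and 4 lay below every wild-type library in CPM, and the other 2 lay within the wild-type range. The mean was 0.416 ± 0.217 CPM in knockout-labelled and 0.954 ± 0.483 CPM in wild-type libraries (SD, n = 5 each). Dio3 did not pass the filter on low counts, and with the filter dropped edgeR estimated -1.19 on the log2 scale (SE 0.460, adjusted p = 0.271). The neighbouring noncoding gene Dio3os had 0.814 ± 0.454 CPM in knockout-labelled and 0.958 ± 0.265 CPM in wild-type libraries.

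Activation was set against inactivation by the ratio of Dio2 to Dio3 counts inside each library, a value that no scaling between libraries can change. The log2 ratio, with 0.5 added to each count, was 9.86 ± 0.885 in knockout-labelled and 8.80 ± 0.876 in wild-type libraries (SD, n = 5 each). Knockout libraries ran from 8.69 to 10.8 and wild-type libraries from 7.81 to 10.1, so the groups overlapped. The difference of 1.06 did not pass an exact two-sided permutation test over the 252 splits (p = 0.0794, adjusted p = 0.159 over the 2 ratios tested, smallest possible p = 0.00794). Between 3 and 30 counts of Dio3 a library stand behind this ratio. The log2 ratio of Thra to Thrb counts was 1.23 ± 0.127 in knockout-labelled and 1.26 ± 0.302 in wild-type libraries (n = 5 each, difference -0.03, exact permutation p = 0.841, adjusted p = 0.841).

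**Figure D2:**
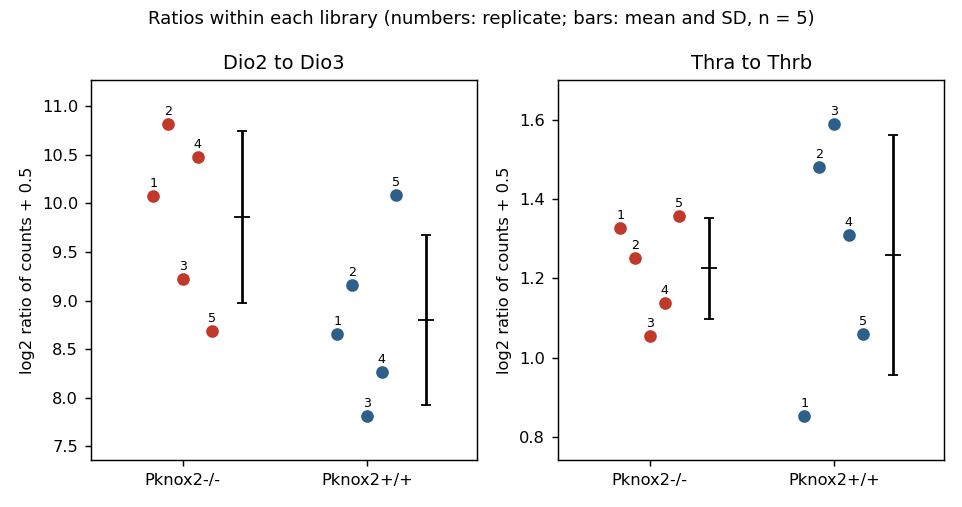
Log2 ratio of Dio2 to Dio3 counts and of Thra to Thrb counts (0.5 added to each) in every library, Pknox2-/- left and Pknox2+/+ right, with mean and SD (bars, n = 5 each). The Dio2 to Dio3 ratio averages 9.86 in Pknox2-/- and 8.80 in Pknox2+/+ with overlapping points, and the Thra to Thrb ratio averages 1.23 and 1.26.

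Of the transporters, Slco1c1 lay lower in every knockout-labelled library than in any wild-type library, without passing the main test, and Slc16a10 did not. Slco1c1 (Entrez 58807, chromosome 6, 141524354 to 141570177, plus strand) encodes OATP1C1, a thyroxine-preferring transporter best known from brain capillaries and choroid plexus. It had 184, 159, 157, 182 and 152 CPM in knockout libraries 1 to 5, against 222, 238, 199.7, 225 and 265 CPM in wild-type libraries 1 to 5. The highest knockout-labelled library, knockout 1, lay under the lowest wild-type library, wild type 3, and 1.22% of all tested genes were likewise below wild type in every knockout-labelled library.

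On average Slco1c1 stood at 167 ± 14.9 CPM in knockout-labelled and 229.9 ± 23.9 CPM in wild-type libraries (SD, n = 5 each), or 0.725-fold (95% interval 0.622 to 0.845). By edgeR this is -0.46 on the log2 scale (SE 0.101, unadjusted p = 0.000619, adjusted p = 0.179), and DESeq2 gave -0.46 (adjusted p = 0.00484). It was -0.33 (SE 0.129) without knockout 2, 3 and 5 and -0.37 (SE 0.157) when a Y-linked expression term was added, and neither was called by edgeR. In bulk RNA, fewer cells of a type and less RNA per cell cannot be told apart. General endothelial markers, 8 genes in all, summed to 480 to 578 CPM in knockout-labelled and 460 to 523 CPM in wild-type libraries, with 4 above 0 and 4 below 0 in log2 fold change. Choroid plexus markers summed to 39.5 to 106 CPM in knockout-labelled and 40.4 to 54.2 CPM in wild-type libraries. Of all 16018 tested genes 8284 were below 0. Other marker lists lay lower: 6 of 7 otic fibrocyte, 8 of 8 Schwann cell and 7 of 8 neuron markers were below 0. Their median log2 fold changes were -0.23, -0.48 and -0.46, and -0.0081, -0.33 and -0.23 without knockout 2, 3 and 5. The part of any of these cells in the Slco1c1 difference was not tested.

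The gene most like Slco1c1 across the 10 libraries, after each group's mean was taken out, was Slco1a4 (Pearson r = 0.94 over 10 libraries), a related organic anion transporter that lies downstream of it on chromosome 6 (141805438 to 141856284, minus strand). Slco1a4 had 24.1 ± 2.61 CPM in knockout-labelled and 32.8 ± 5.37 CPM in wild-type libraries, with overlapping groups and a log2 difference of -0.44 (adjusted p = 0.214, edgeR). Tia1 (0.92) and the host transcript Mir124a-1hg (0.91) came next. The points share their library and its depth, so these values only describe likeness.

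The Slco1c1 promoter window, chr6:141524104-141524403 on the plus strand, is shown as that of the member with the clearest separation. None of the 3 motifs occurs in these letters, so nothing is in capitals.
Slco1c1 start: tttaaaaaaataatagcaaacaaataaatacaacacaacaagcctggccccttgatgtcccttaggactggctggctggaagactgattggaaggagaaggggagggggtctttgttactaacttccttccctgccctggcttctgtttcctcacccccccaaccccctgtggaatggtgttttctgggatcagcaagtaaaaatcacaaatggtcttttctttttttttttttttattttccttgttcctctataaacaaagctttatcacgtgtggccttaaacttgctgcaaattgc

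Slc16a10 (Entrez 72472, chromosome 10, 40033532 to 40142270, minus strand) encodes MCT10, which carries triiodothyronine and aromatic amino acids. It had 54.4, 39.8, 39.3, 43.7 and 50.3 CPM in knockout libraries 1 to 5, against 46.6, 55.4, 69.9, 37.2 and 43.2 CPM in wild-type libraries 1 to 5. Wild type 3 was the highest, wild type 4 the lowest, and every knockout-labelled library lay between them. Knockout over wild type, the log2 value was -0.15 (95% interval -0.51 to 0.21, adjusted p = 0.568, edgeR). Erythroid markers summed to 3529, 4751, 5407, 1736 and 2344 CPM in wild-type libraries 1 to 5, the same order as Slc16a10. They summed to 2759, 3300, 2994, 1520 and 4334 CPM in knockout libraries 1 to 5, where the order differed. The part of blood cells in the Slc16a10 values was not tested.

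Crym had higher levels in 4 of the 5 knockout-labelled libraries than in any wild-type library, also without passing the main test. Crym (Entrez 12971, chromosome 7, 120186380 to 120201989, minus strand) encodes mu-crystallin, a cytosolic protein that binds triiodothyronine, and variants of the human gene cause deafness. It had 15.7, 38.7, 29.4, 25.1 and 25.9 CPM in knockout libraries 1 to 5, against 10.3, 16.4, 12.3, 17.9 and 15.2 CPM in wild-type libraries 1 to 5. Knockout 1 lay inside the wild-type range and knockout 2 was the highest of all.

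The Crym mean was 27.0 ± 8.31 CPM in knockout-labelled and 14.4 ± 3.10 CPM in wild-type libraries (SD, n = 5 each), or 1.87-fold (95% interval 1.34 to 2.62). By edgeR this is 0.90 on the log2 scale (SE 0.223, unadjusted p = 0.00158, adjusted p = 0.208), and DESeq2 gave 0.91 (adjusted p = 0.0180). Without knockout 1 it was 1.05 and called by edgeR (adjusted p = 0.0391, where 1.03% of all genes were called, 0.67% higher and 0.36% lower). It was 0.50 (SE 0.235, unadjusted p = 0.0571, edgeR) without knockout 2, 3 and 5 and 0.27 (SE 0.267, unadjusted p = 0.337, edgeR) when a Y-linked expression term was added. That term runs largely alongside the group, so the 0.27 does not part sex from group. Crym was most like the microRNA locus Mir703 (r = 0.98), the otic fibrocyte gene Otor (0.97) and Vps4a (0.96) over the 10 libraries. Otor itself had 901 ± 225 CPM in knockout-labelled and 759 ± 118 CPM in wild-type libraries (log2 fold change 0.25, adjusted p = 0.391, edgeR), while 6 of 7 fibrocyte markers had a log2 fold change below 0. Their part in the Crym values was not tested.

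**Figure D3:**
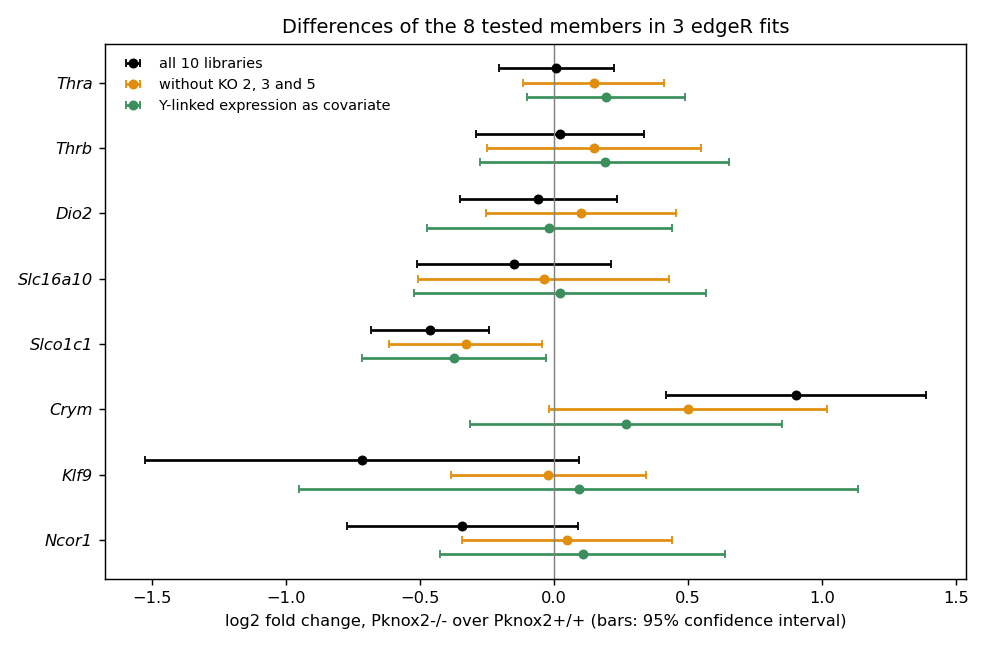
Log2 fold change, Pknox2-/- over Pknox2+/+, of the 8 tested genes with 95% confidence intervals in edgeR fits on all 10 libraries, without knockout 2, 3 and 5, and with an added Y-linked expression term. Slco1c1 lies below 0 in all 3 fits (-0.46, -0.33 and -0.37), Crym is at 0.90, 0.50 and 0.27, and Klf9 is at -0.72, -0.02 and 0.091.

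Klf9 and Ncor1 were low in the 3 libraries that stood apart and similar to wild type in the other 2 knockout-labelled ones. Klf9 (Entrez 16601, chromosome 19, 23141226 to 23168129, plus strand) encodes a zinc finger factor that triiodothyronine induces directly in mouse and frog. It had 92.6, 15.6, 46.0, 87.6 and 36.4 CPM in knockout libraries 1 to 5, against 101, 65.5, 92.6, 94.2 and 105 CPM in wild-type libraries 1 to 5. Knockout 2, 3 and 5 lay below every wild-type library, and knockout 1 and 4 lay within the wild-type range. Over all 10 libraries Klf9 differed by -0.72 on the log2 scale (SE 0.372, adjusted p = 0.275, edgeR), and without knockout 2, 3 and 5 by -0.02 (SE 0.164). The second fit drops the 3 libraries lowest in Klf9 and keeps only knockout 1 and 4, so its smaller value follows from that choice.

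Ncor1 (Entrez 20185, chromosome 11, 62315663 to 62457414, minus strand) encodes the corepressor that unliganded receptors recruit. It had 174, 87.0, 111, 151 and 97.7 CPM in knockout libraries 1 to 5, against 178, 118, 181, 134 and 175 CPM in wild-type libraries 1 to 5. The same 3 libraries were the lowest. Ncor1 differed by -0.34 on the log2 scale (SE 0.198, adjusted p = 0.303, edgeR), and by 0.048 (SE 0.177) without those libraries. Its annotated span overlaps that of Ttc19 on the other strand (62281429 to 62331879), which had 35.6 ± 3.17 CPM in knockout-labelled and 35.0 ± 2.87 CPM in wild-type libraries.

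Within groups, Klf9 and Ncor1 followed the first principal component with a Pearson r of -0.95 and -0.94 over the 10 libraries, and their r with each other was 0.87. The component holds 56.6% of the variance and both genes entered it, so this describes the libraries. Ribosomal protein genes took 5.05% to 6.5% of the counts in knockout 2, 3 and 5, against 2.98% and 3.25% in knockout 1 and 4 and 2.47% to 4.24% in wild type. The part of RNA quality or library makeup in the Klf9 and Ncor1 values was not tested. Crym had an r of 0.75 with the component and Thra one of -0.77. Slco1c1 had -0.58, Thrb -0.58, Dio2 -0.57 and Slc16a10 -0.23. The genes most like Klf9 were Dpysl3, Ebf2 and Itpkb (0.998 to 0.995), and those most like Ncor1 were Ankhd1, Slc26a2 and Arid2 (0.996 to 0.992). Lower likeness was seen for the receptors and deiodinase, whose nearest genes were Klhl21 for Thra (0.97), Smarcd1 for Thrb (0.98) and Ubqln1 for Dio2 (0.96), and for Slc16a10 it was Slc25a37 (0.95).

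**Figure D4:**
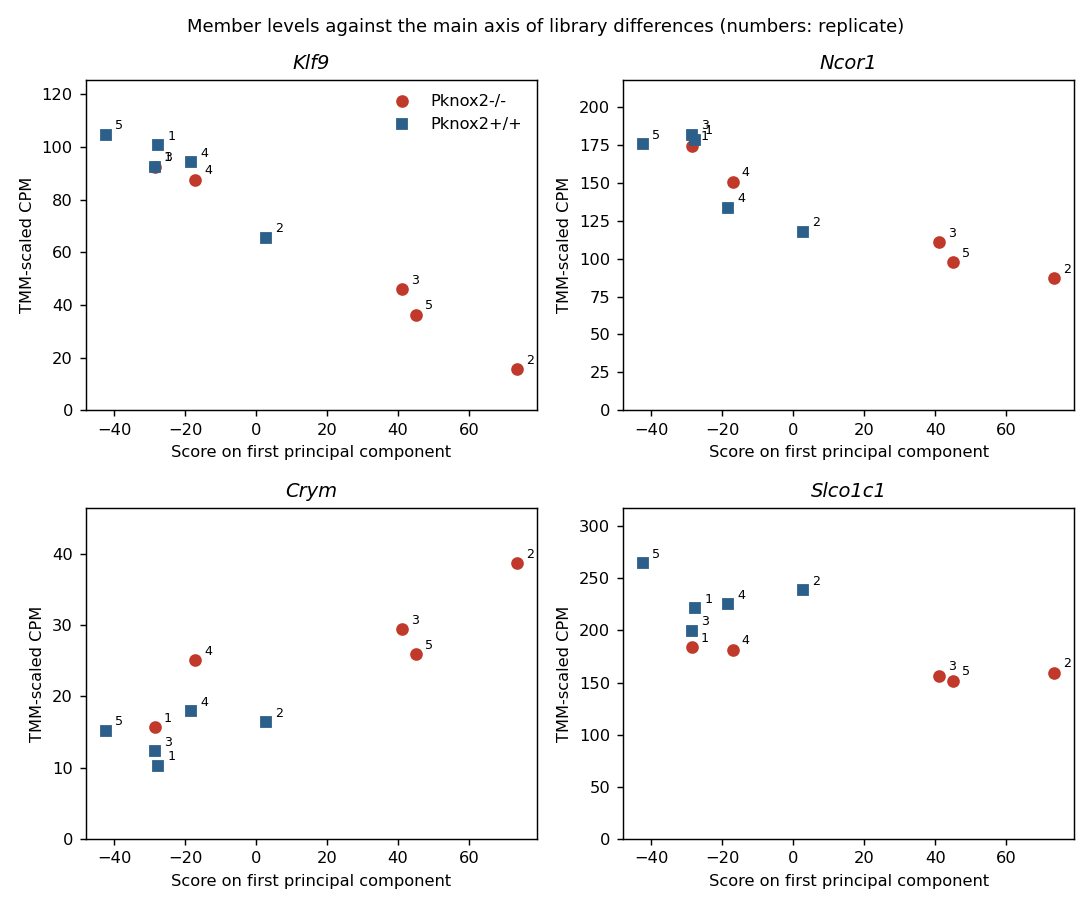
TMM-scaled CPM of Klf9, Ncor1, Crym and Slco1c1 against the score of each library on the first principal component (red circles, Pknox2-/-; blue squares, Pknox2+/+; numbers, replicate). Klf9 and Ncor1 run down along the component, with knockout 2, 3 and 5 at its far end, while for Slco1c1 knockout 1 and 4 lie under the wild-type libraries of similar score.

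Other genes of the pathway were read from the same fit, from lists drawn up by role. Among 11 tested genes of hormone transport and metabolism none was called by edgeR, 6 reached an unadjusted p under 0.05 (2 higher and 4 lower in knockout-labelled libraries) and DESeq2 called 1, Slco4a1. Over all tested genes 20.1% reached that unadjusted mark (11.4% higher and 8.66% lower), and DESeq2 called 2.07%. The list's median log2 fold change was 0.01, and -0.055 without knockout 2, 3 and 5. Slco4a1, a transporter of thyroid hormones among other anions, had 2.99 ± 0.463 CPM in knockout-labelled and 4.83 ± 0.504 CPM in wild-type libraries with no overlap (-0.69 on the log2 scale, SE 0.165, adjusted p = 0.206, edgeR). Of all tested genes 1.22% likewise lay below every wild-type library. Slc7a8, an amino acid transporter that also carries hormone, had 40.4 ± 10.9 CPM in knockout-labelled and 58.6 ± 10.2 CPM in wild-type libraries (-0.54, adjusted p = 0.217). Ttr, the thyroxine carrier made by choroid plexus, had 28.9 ± 30.6 CPM in knockout-labelled and 9.77 ± 3.20 CPM in wild-type libraries (1.57, adjusted p = 0.217), with 82.6 CPM in knockout 2 and 9.19 to 24.3 CPM in the other 4 knockout-labelled libraries. Without knockout 2, 3 and 5 the log2 values were -0.59 for Slco4a1, -0.18 for Slc7a8 and 0.033 for Ttr.

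None of 17 receptor partners and coregulators was called by edgeR or DESeq2, and 1 had an unadjusted p under 0.05. Of all tested genes 20.1% reached that unadjusted mark, and DESeq2 called 2.07%. The list's median log2 fold change was -0.13, with 13 below 0, as were 8284 of all 16018 tested genes. The coactivator gene Ncoa3 had 62.6 ± 6.99 CPM in knockout-labelled and 77.3 ± 9.62 CPM in wild-type libraries (-0.30, adjusted p = 0.223, edgeR). The hormone-regulated corepressor gene Hr had -0.26, the corepressor subunit genes Hdac3 and Tbl1x had 0.19 and -0.77, and none of these passed (adjusted p = 0.289 to 0.320). Tbl1x stood at 4.35, 12.3 and 8.37 CPM in knockout 2, 3 and 5, while knockout 1 and 4, at 34.7 and 32.9 CPM, lay within the wild-type range of 22.9 to 39.5 CPM. Without those 3 libraries the list's median was 0.095, and the log2 values were 0.095 for Tbl1x, -0.027 for Hdac3, -0.15 for Ncoa3 and -0.080 for Hr.

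Of 8 tested genes known to be induced by the hormone in brain or liver none was called by edgeR, 3 had an unadjusted p under 0.05 (2 higher and 1 lower) and DESeq2 called Nrgn. The shares over all tested genes were 20.1% at that unadjusted mark and 2.07% by DESeq2. The list's median was -0.047, and -0.18 without knockout 2, 3 and 5. Nrgn, a calmodulin-binding protein of neurons, had 57.7 ± 16.7 CPM in knockout-labelled and 36.1 ± 4.90 CPM in wild-type libraries (0.68, adjusted p = 0.210, edgeR). The myelin gene Mbp, which is also a Schwann cell marker, had -0.47 (adjusted p = 0.214), Flywch2 had 0.55 (adjusted p = 0.237) and Shh had -0.61 (adjusted p = 0.256). Nrgn was highest in knockout 2, 3 and 5, at 78.2, 67.5 and 61.4 CPM, against 38.6 and 42.8 CPM in knockout 1 and 4. Flywch2 likewise had 33.3, 25.5 and 25.5 CPM in those 3 libraries and 13.1 and 15.8 CPM in the other 2. Without the 3 libraries the log2 values were 0.17 for Nrgn, -0.10 for Flywch2, -0.26 for Mbp and -0.28 for Shh. All 8 Schwann cell markers had a log2 fold change below 0, and they summed to 8532 to 11506 CPM in knockout-labelled and 13663 to 17574 CPM in wild-type libraries. Their part in the Mbp value was not tested.

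Of 7 cochlear genes known from rodents to need thyroid hormone for normal expression, Tectb rose and none fell by edgeR, with a list median of -0.33 and of -0.002 without knockout 2, 3 and 5. Tectb, which encodes beta-tectorin of the tectorial membrane, had 384 ± 103 CPM in knockout-labelled and 128 ± 31.1 CPM in wild-type libraries, with no overlap (1.58 on the log2 scale, SE 0.207, adjusted p = 0.0300, edgeR). Over all tested genes 0.0187% were called, and 1.15% lay above every wild-type library in all knockout-labelled ones. The Tectb change was known when the list was made. Its log2 value was 1.44 to 1.69 with single libraries left out, 1.48 without knockout 2, 3 and 5, 1.47 with a Y-linked term and 1.57 with a replicate term. The edgeR call did not hold in these fits (adjusted p = 0.0645 to 0.164 with single libraries left out), except without knockout 1 (adjusted p = 0.0106). The prestin gene Slc26a5 had 1.81 ± 2.20 CPM in knockout-labelled and 4.23 ± 2.08 CPM in wild-type libraries (-1.21, adjusted p = 0.310), and its 3 lowest libraries, at 0.181 to 0.488 CPM, were knockout 2, 3 and 5. The potassium channel gene Kcnj10 had -0.33, the calcium channel gene Cacna1d -0.42, the otoferlin gene Otof 0.05 and the potassium channel gene Kcnma1 0.04, and none passed (adjusted p = 0.264 to 0.897). Without knockout 2, 3 and 5 Slc26a5 had -0.063, Kcnj10 -0.0023 and Cacna1d 0.097.

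**Figure D5:**
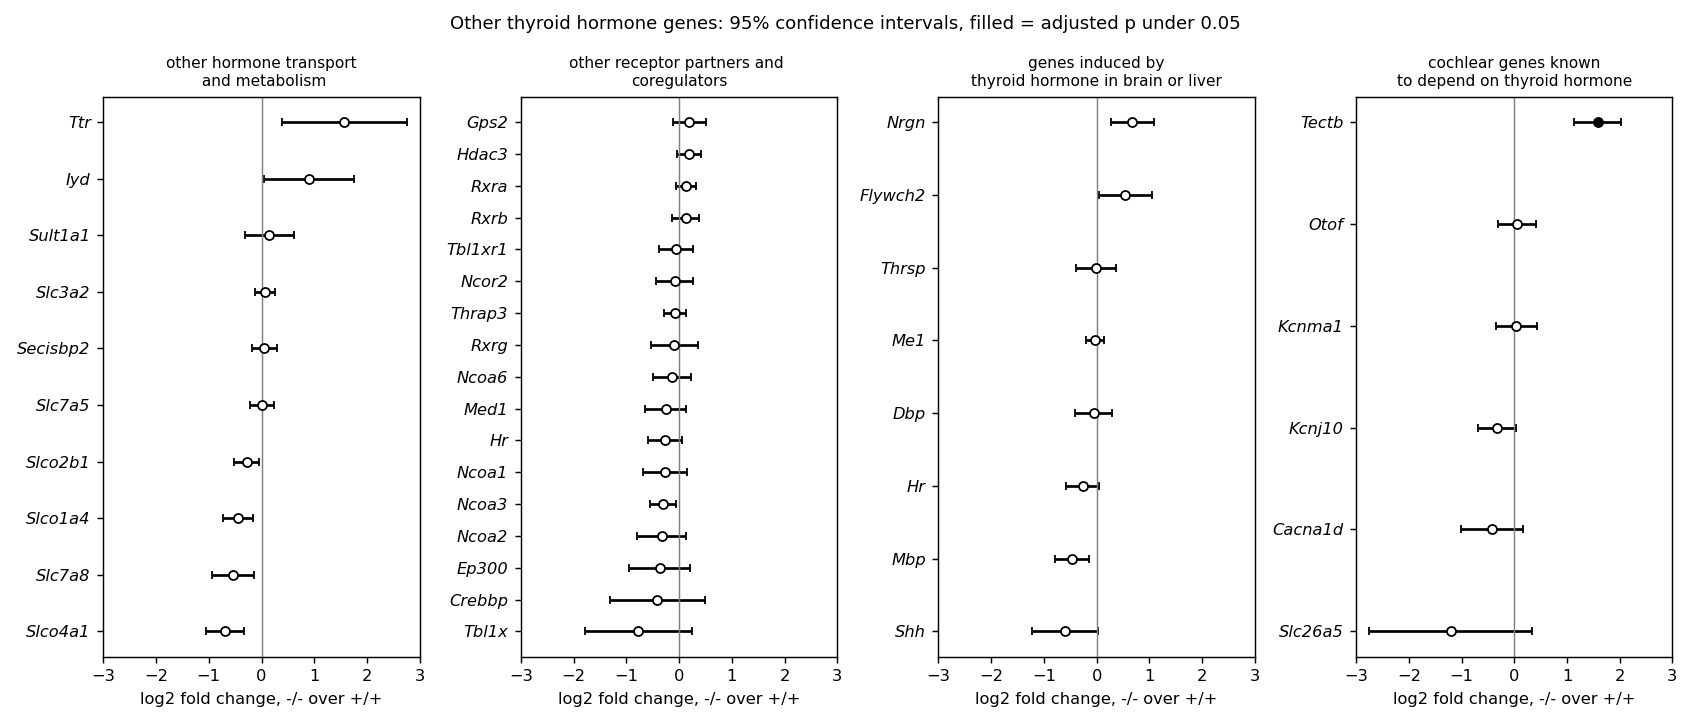
Log2 fold change, Pknox2-/- over Pknox2+/+, with 95% confidence intervals (bars) of tested genes on the 4 other thyroid hormone lists. Only Tectb, at 1.58, is filled as called at an adjusted p under 0.05, and Ttr and Slc26a5 have the widest intervals of their lists.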

How the data were processed

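RNA-seq libraries of whole cochlea were analysed from the deposited table of raw counts per Entrez gene, 5 labelled Pknox2-/- and 5 labelled Pknox2+/+. The submitters' processing notes list HISAT2, featureCounts, limma and the build mm10; which annotation, strand option and filters the authors used is not stated in the labels. Totals of 16642525 to 19394072 counts per library set the precision, and no column was left unmapped. Symbols and positions came from RefSeq (GRCm38, 25275 IDs) and GENCODE M21 (18 IDs), and exon lengths from GENCODE M21.

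The main test was edgeR 4.0.16 (R 4.3.3) with the quasi-likelihood F-test, group as the only term, TMM scaling and filterByExpr (minimum count 10, minimum total 15), which kept 16018 genes; p-values were adjusted by Benjamini-Hochberg over these and called under 0.05. Log2 fold changes are knockout over wild type, and SE is the log2 fold change over the root of F. The fit was also run on simulated counts drawn separately for each gene. These lack the first principal component of the real libraries, so they cannot show how calls behave along it. Ratios within libraries had an exact permutation test. Alternatives were RLE and upper-quartile scaling, no filter, and a stricter filter (CPM over 1 in 5 or more libraries). Others were DESeq2 1.42.0, limma 3.58.1 (voom, plain or quality-weighted), a replicate block, a Y-linked covariate, and each library left out. Leaving out knockout 2, 3 and 5 was added with the data known and keeps only knockout 1 and 4 of that group. The 3 libraries stand apart on the first principal component, so values for genes that follow it depend on this choice. Named were all 9 members, called list members or else the 4 with the smallest p, the tested cochlear hormone-dependent genes (some list members are not reported here by name), overlapping genes, and the genes most correlated with each member (prior count 2, mean CPM of 1 or more). The members and lists were chosen with earlier results of these data known. P-values set the difference between groups against the spread between libraries, and cannot part group from sex or library makeup where these differed between the groups.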

Additional observations from a re-analysis of the deposited data

How the results depend on the processing

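Under RLE or upper-quartile scaling, no filter, the stricter filter and limma-voom without weights, 3 genes, 0 members and 1 listed thyroid hormone gene (Tectb) were called, as in the report. DESeq2 called 331 genes (2.07% of all tested), 2 of the 8 members and 3 of the 42 tested listed genes. With quality weights limma-voom called 6259 genes (39.1% of all tested), 4 of the 8 members and 22 of the 42 listed genes. The cause was not tested. The Y-linked covariate gave 0 genes and 0 listed genes (0 of the 8 members), and leaving out knockout 2, 3 and 5, a fit with fewer samples, gave 1 and 0. The Y-linked covariate runs largely alongside the group, so its fit cannot well part sex from group. With single libraries left out, edgeR called 1 to 166 genes, 0 to 1 members (Crym, without knockout 1) and 0 to 2 listed genes; the 166 came without knockout 1.

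Deviations of same-numbered libraries correlated at -0.38 to 0.51, and 1 of 5 knockout libraries was most like its own number. These values cannot settle whether same-numbered libraries shared a litter or batch. With the replicate number as a block 1 gene, 0 members and 0 listed genes were called. Against the main fit the block lowered the SE for Crym (0.223 to 0.153), Klf9 (0.372 to 0.275), Ncor1 (0.198 to 0.156) and Thrb. It raised the SE for Slco1c1 (0.101 to 0.113), Thra, Dio2 and Slc16a10.

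Slco1c1 stayed below 0 and Crym above 0 in all 20 alternatives, at -0.51 to -0.41 and 0.74 to 1.05 with single libraries left out. Signs turned for 6 members. With the Y-linked covariate Slc16a10 had 0.021, Klf9 0.091 and Ncor1 0.11, and without knockout 2, 3 and 5 Dio2 had 0.10 and Ncor1 0.048. With quality weights Thra had -0.039. With single libraries left out Thra ran from -0.059 to 0.052, Thrb from -0.060 to 0.10, Dio2 from -0.13 to 0.0046, and the Thra to Thrb log2 ratio difference from -0.13 to 0.050. The Dio2 to Dio3 difference was 0.90 to 1.48 with other pseudocounts, the block or without knockout 2, 3 and 5, and 0.81 to 1.38 with single libraries left out (adjusted p = 0.0794 to 0.365, exact permutation tests). Dio3 counts limit what can be seen of that gene.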
